A study of Bos grunniens with 6 samples.

Results

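KRT5, KRT14, KRT80 and KRT83 are 4 keratin genes, picked by symbol from a table of 15646 genes, and they stand for the keratins of stratified epithelium and of hair. Their mRNA was compared between cultured dermal papilla cells (DPC) and cultured hair matrix cells (HMC) of the yak (Bos grunniens), with 3 RNA-seq libraries of each. The papilla is the mesenchymal core at the base of the hair follicle, and the matrix is the epithelium around it that divides to build the hair. Both were isolated from skin labelled WT and grown in the same DMEM/F12 medium with IGF1 at 10 ng/mL, EGF at 20 ng/mL and 10% FBS, so neither group is an untreated control of the other. The labels call the libraries biological replicates without naming animals, and p-values here measure the spread between these cultures.

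Keratins are the intermediate filament proteins of epithelia. A filament is built from pairs of 1 acidic type I chain and 1 basic type II chain, so cells make both types together. KRT5 (type II) and KRT14 (type I) are the pair of dividing basal keratinocytes in the epidermis and outer root sheath. KRT80 (type II) is known from human epithelia as a chain that appears with differentiation and lies near desmosomes, and KRT83 (type II) is a hair keratin of the cortex of the hair shaft. KRT7, KRT8, KRT18 and KRT19 are instead keratins of simple epithelia.

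The 4 genes behaved in 3 ways. KRT5 and KRT80 were much higher in HMC, KRT14 did not differ beyond the spread of its libraries, and KRT83 was barely detected in HMC and had no read in DPC. KRT5 was at the same time the most abundant in DPC of the keratins with a row in the table. Values are FPKM, fragments scaled to gene length and to all mapped fragments, which allow levels of different genes to be set against each other. The reads behind them, recovered from the steps of the values, summed to 13.1 to 13.4 M for each DPC library and 13.7 to 14.0 M for each HMC library (M, mega). No 2 libraries of a group were copies, since the chi-square of their reads was 2.63 to 5.74 per gene, where counting error alone gives about 1.

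The mesenchymal or epithelial character of each culture was checked on marker lists. These lists do not tell hair matrix from other epithelium, or papilla from other mesenchyme. Of 14 mesenchyme markers, 14 were higher in DPC, and of 11 simple epithelium markers with a row in the table, 11 were higher in HMC. Among all genes tested, 29.7% were called higher in DPC and 46.2% higher in HMC. CDH1, EPCAM, CLDN7, ESRP1, GRHL2 and ST14 had DPC means under 0.5 FPKM. They passed the filter of 0.5 FPKM over the 6 libraries only through HMC, so their direction was fixed. The summed mesenchyme markers came to 28971 to 29888 FPKM in DPC against 781 to 925 FPKM in HMC, and the summed simple epithelium markers to 36.5 to 44.6 in DPC against 13427 to 13749 FPKM in HMC. In a bulk library, fewer cells that express a gene and less RNA per cell cannot be told apart.

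KRT5 (ENSBGRG00000001103) stood at 44.2, 30.3 and 39.7 FPKM in DPC replicates 1, 2 and 3, against 1149, 1068 and 1033 FPKM in HMC replicates 1, 2 and 3. The groups do not overlap, and DPC held 3.52% of the HMC level. The means were 38.1 ± 7.08 in DPC against 1083 ± 59.8 FPKM in HMC (SD, n = 3 each), a log2 difference of -4.81 (SE 0.12) on log2(FPKM + 1), DPC minus HMC, with limma adjusted p = 5.02e-09. KRT5 ranked between 1968 and 2784 among all genes of the DPC libraries by FPKM, and between 68 and 79 in the HMC libraries. At least 2701 reads carried the DPC value and 80372 the HMC value, so KRT5 mRNA was measured well above 0 in the papilla cultures too.

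A second row of the table also has the symbol KRT5 (ENSBGRG00000000931). It had 0 reads in every DPC library and 76, 65 and 81 reads in HMC replicates 1, 2 and 3. Its HMC mean was 3.62 ± 0.390 FPKM (SD, n = 3), at least 70.6-fold higher than the DPC level that 3 reads over the whole group would give. That bound covers counting error only, as do all such floors and counting SDs below. In the RefSeq annotation of the species (assembly Bosgru_T2T1.0), KRT5 sits between KRT71 and KRT6A, type II genes of the inner root sheath and of wounded epidermis, and KRT6A (K6A in the table) had 0 reads in DPC and 10 reads in HMC.

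KRT14 (ENSBGRG00000012060), the partner of KRT5, stood at 16.5, 12.4 and 19.7 FPKM in DPC replicates 1, 2 and 3, against 15.4, 14.7 and 14.9 FPKM in HMC replicates 1, 2 and 3. The HMC libraries lie inside the range of the DPC libraries. The means were 16.2 ± 3.63 in DPC against 14.998 ± 0.330 FPKM in HMC (SD, n = 3 each). The log2 difference was 0.08, with a 95% interval of -0.24 to 0.41 and limma adjusted p = 0.605. The interval leaves room for a modest difference in either direction, and no call was made. DPC replicates 2 and 3 decided the call and the sign: without DPC replicate 2 the difference was 0.25 with limma adjusted p = 0.0348, and without DPC replicate 3 it was -0.061 with limma adjusted p = 0.648. The row carries pathway terms but no gene ontology term, and the RefSeq names for this species hold no protein-coding gene called KRT14. The identity of the row thus rests mainly on its symbol.

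KRT80 (ENSBGRG00000000574) stood at 2.25, 2.74 and 3.50 FPKM in DPC replicates 1, 2 and 3, against 556, 546 and 509 FPKM in HMC replicates 1, 2 and 3. It had the widest gap of the 3 members that passed the filter on low values, and DPC held 0.527% of the HMC level. The means were 2.83 ± 0.627 in DPC against 537 ± 24.9 FPKM in HMC (SD, n = 3 each), a log2 difference of -7.15 (SE 0.11, limma adjusted p = 3.35e-10). With 194 reads in DPC, the low level there was still measured above 0 in each library, at 52, 62 and 80 reads.

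KRT83 (ENSBGRG00000000704) had 0 reads in each DPC library, against 13, 13 and 8 reads in HMC replicates 1, 2 and 3. In FPKM the HMC libraries held 0.647, 0.639 and 0.389, a mean of 0.558 ± 0.146 (SD, n = 3). The HMC level was at least 10.8-fold higher than the level that 3 reads over the 3 DPC libraries would give. With a mean of 0.279 FPKM over the 6 libraries it lay under the filter of 0.5 FPKM and was not among the genes tested. In a fit without that filter it was called higher in HMC (log2 difference -0.64, limma adjusted p = 0.000190). With 0 reads in DPC, KRT83 entered that fit through HMC alone, so its direction was fixed. In that fit 37.9% of all 15646 genes were called higher in HMC, and 63% in either direction. A fitted value against a group at 0 also depends on the pseudocount. Another 2 rows are also called KRT83 (ENSBGRG00000000774 and ENSBGRG00000000788), with 0 reads in DPC and 5 reads and 1 read in HMC, so the 3 rows together held 0 reads in DPC and 40 reads in HMC. In HMC, KRT83 stood far below KRT5 and KRT80 on the FPKM scale, at rank 11263 to 11684 of all genes.

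Of the 3 members tested, none was called higher in DPC, 2 were called higher in HMC and 1 was not called, where 29.7% of all 11883 genes tested were called higher in DPC, 46.2% higher in HMC and 75.9% in either direction. At so high a background a call alone says little, and the sizes carry more: 27.1% of genes tested were called and differed at least 2-fold, as KRT5 and KRT80 did. Among the members tested, KRT5 and KRT80 had groups that did not overlap with HMC higher, as did 47.1% of all genes tested, and 77.9% of genes did not overlap in either direction.

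**Figure D1:**
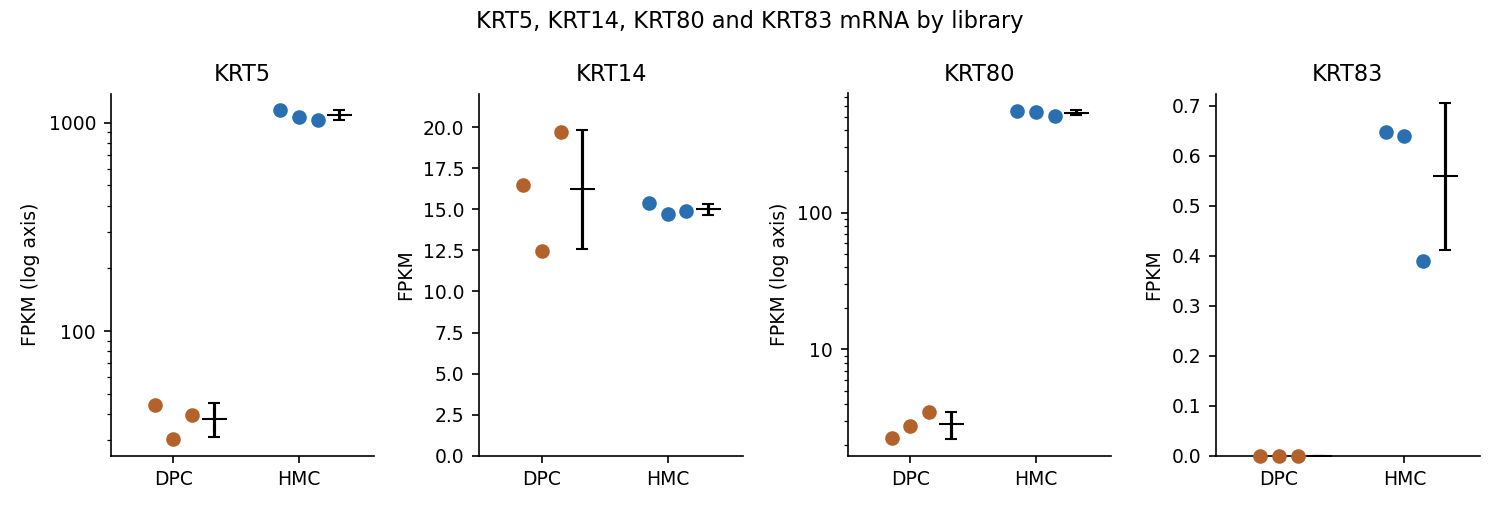
FPKM of KRT5, KRT14, KRT80 and KRT83 in 3 DPC libraries (left in each panel) and 3 HMC libraries (right), with the axis on a log scale for KRT5 and KRT80 and linear from 0 for KRT14 and KRT83. Each point is a library, the dash is the mean and the bar is the SD: KRT5 and KRT80 are far apart, the HMC points of KRT14 lie within the spread of its DPC points, and KRT83 is at 0 in every DPC library.

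The spread between cultures, which can hold more than counting error, was uneven. For KRT14 the SD was 3.63 FPKM in DPC and 0.330 FPKM in HMC, beside counting SDs of at most 0.840 FPKM in DPC and 0.790 FPKM in HMC. For KRT5 the SD of 7.08 FPKM in DPC stood beside a counting SD of at most 1.27 FPKM. The coefficient of variation in DPC was 18.6% for KRT5, 22.4% for KRT14 and 22.1% for KRT80, against 5.52%, 2.2% and 4.64% in HMC. KRT5 and KRT14 were both lowest in DPC replicate 2, whereas KRT80 was lowest in DPC replicate 1. Of 11 keratins with a DPC mean of at least 0.5 FPKM, 9 were lowest in DPC replicate 2, against 36.8% of 11124 genes with such a mean, a pattern picked out after the values were seen. KRT17, a keratin of stressed and appendage epithelium, had 20.6, 11.8 and 15.2 FPKM in DPC replicates 1, 2 and 3.

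KRT5 and KRT14 were out of proportion in HMC. The ratio of KRT5 to KRT14 FPKM was 2.68, 2.44 and 2.02 in DPC replicates 1, 2 and 3, against 74.8, 72.5 and 69.3 in HMC replicates 1, 2 and 3. The groups do not overlap, and in both cell types KRT5 was the more abundant of the pair. The mean log2 ratio was 1.24 ± 0.209 in DPC and 6.17 ± 0.0556 in HMC (SD, n = 3 each), a difference of -4.93 with a two-sided exact permutation p = 0.1, the smallest that 3 against 3 libraries allow. KRT14 may share reads with other type I keratins, and the sources used here do not give how such reads were counted.

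Other type I chains outnumbered KRT14 in HMC. KRT19, which has a very short tail and is found in simple epithelium and parts of the follicle, stood at 4090 ± 75.1 FPKM there and KRT18 (PIG46 in the table) at 982 ± 6.05 FPKM. KRT15, a basal and stem-cell keratin of the follicle bulge, stood at 0.166 ± 0.167 in DPC against 150 ± 14.1 FPKM in HMC, and KRT17 at 15.9 ± 4.47 in DPC against 141 ± 5.55 FPKM in HMC (SD, n = 3 each). By level among the keratins with a row, KRT14 was number 3 in DPC and number 10 in HMC. Summed over 10 type II and 14 type I keratins with a row in the table, type II chains came to 69.4 ± 10.02 in DPC against 8852 ± 175 FPKM in HMC, and type I chains to 55.6 ± 8.01 in DPC against 5387 ± 87.4 FPKM in HMC (SD, n = 3 each). The ratio of the sums was 1.22, 1.25 and 1.28 in the DPC libraries, against 1.65, 1.65 and 1.63 in the HMC libraries. The difference of its mean log2 was -0.40, with exact permutation p = 0.1, and -0.85 with rows under current symbols only, which leaves out 6 rows, with KRT18 and the row called KRT6E the most abundant of them. Over the 24 keratins with a row the types were thus within a factor of 2 of each other in every library, while KRT5 and KRT14 alone were not in either cell type.

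**Figure D2:**
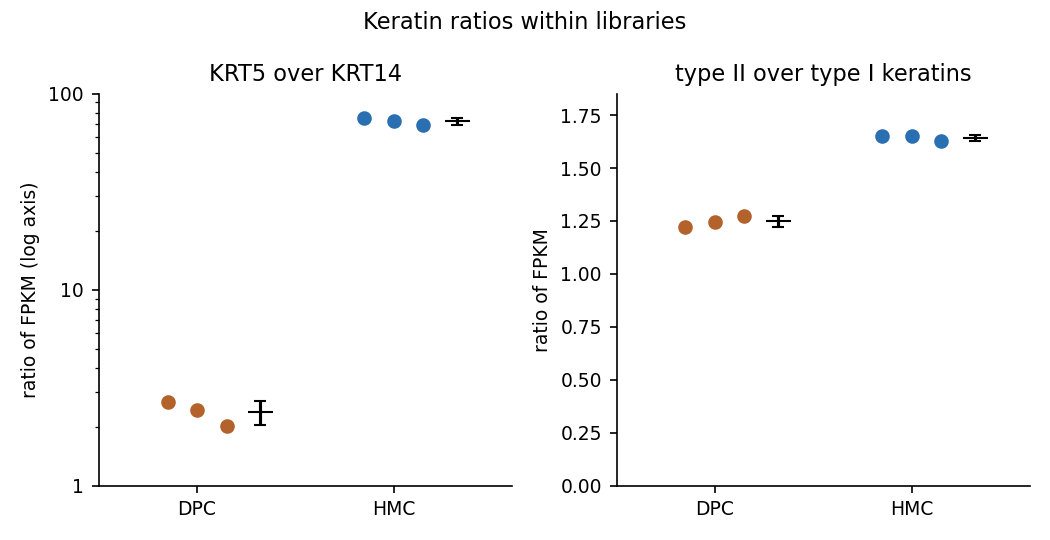
Ratio of KRT5 to KRT14 FPKM (left panel, log axis) and of summed type II to summed type I keratin FPKM (right panel, linear axis from 0) in each DPC and HMC library, with the mean and SD. The KRT5 to KRT14 ratio is 2.02 to 2.68 in DPC and 69.3 to 74.8 in HMC, and the family ratio is 1.22 to 1.28 in DPC and 1.63 to 1.65 in HMC.

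The makeup of the keratin pool differed accordingly. Shares and orders by level are given over the 24 keratins with a row. KRT5 made up 30.3 ± 1.82% of their summed FPKM in DPC and 7.60 ± 0.284% in HMC. KRT14 made up 12.9 ± 1.52% in DPC and 0.105 ± 0.000941% in HMC (SD, n = 3 each). KRT80 made up 2.29 ± 0.555% in DPC and 3.77 ± 0.134% in HMC. For each of the 4 members the shares of the groups did not overlap, with exact permutation p = 0.1. For KRT83 that follows from its 0 reads in every DPC library. In FPKM, 77.9% of all genes tested did not overlap in either direction, and no such background was computed for shares. The lack of overlap alone thus says little about the members. The KRT14 share was lower in HMC because the keratin sum was higher there, while the FPKM of KRT14 was not called different. In DPC the order by mean level was KRT5 first at 38.1 FPKM, then KRT19 at 19.1, KRT14 at 16.2, KRT17 at 15.9 and the row called KRT6E at 10.8 FPKM, and KRT14, KRT17 and KRT19 did not differ beyond their spread. In HMC it was KRT19 at 4090, KRT7 at 3686, KRT8 at 3352, KRT5 at 1083, KRT18 at 982 and KRT80 at 537 FPKM.

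Of 55 keratins listed, 24 had a row in the table and 14 of those passed the filter. Of these 14, 1 (KRT10) was called higher in DPC, 12 were called higher in HMC and 1 (KRT14) was not called, with a median log2 difference of -4.43, beside -0.15 over all genes tested. The shares over all genes tested were 29.7% called higher in DPC and 46.2% higher in HMC. KRT13, KRT15, KRT39 and KRT40 had DPC means under 0.5 FPKM and passed only through HMC, so their direction was fixed by the filter. KRT10, the type I chain of suprabasal epidermis, was low in both cell types, at 1.74 ± 0.133 in DPC against 1.22 ± 0.139 FPKM in HMC (SD, n = 3 each), differed by 0.31 on the log2 scale with limma adjusted p = 0.0140, and lost its call without DPC replicate 1 (limma adjusted p = 0.0516) and in a voom fit on recovered reads (limma adjusted p = 0.0671). KRT222, a keratin-like gene under the filter, was the reverse of KRT83, with 25 reads in DPC and 0 in HMC. No keratin of the inner root sheath list was matched.

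**Figure D3:**
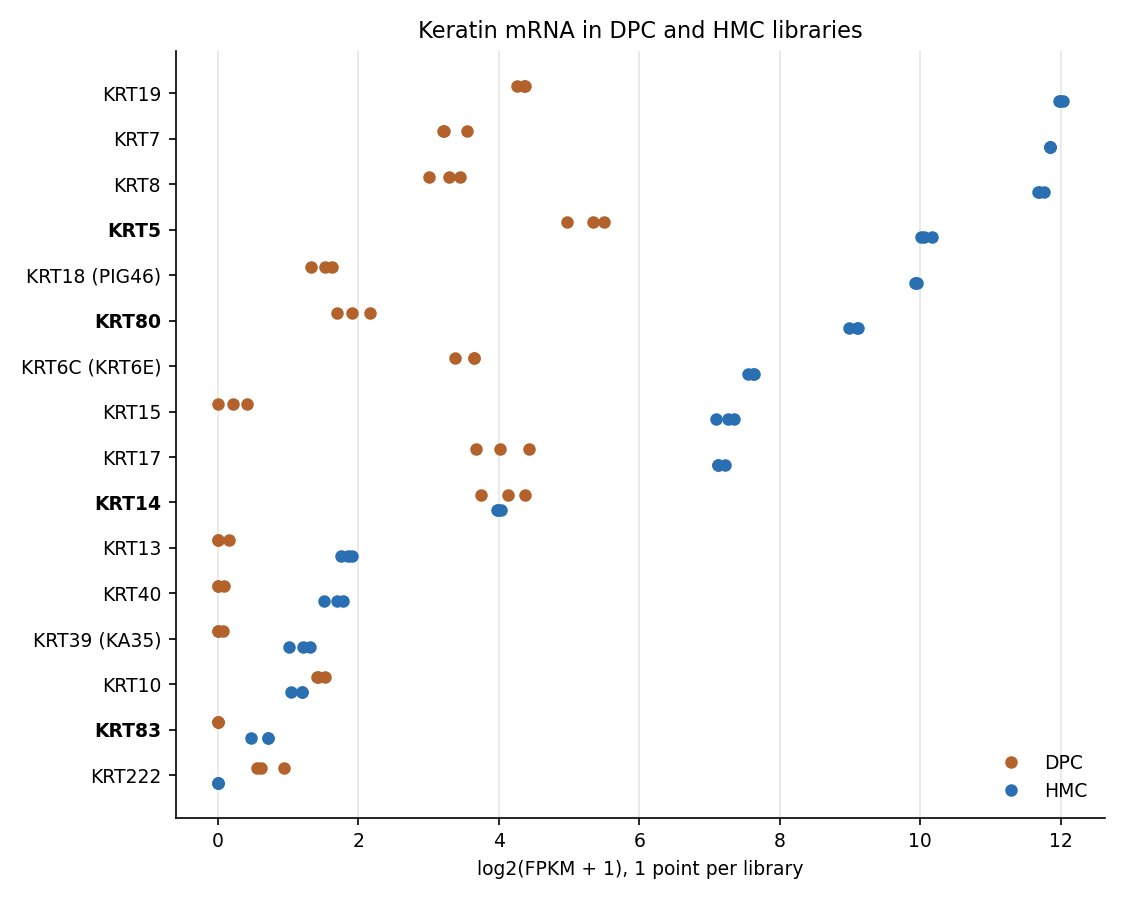
log2(FPKM + 1) of the 16 keratins with a mean of at least 0.5 FPKM in either cell type, 1 point per library, with DPC drawn above HMC in each row, the members in bold and older symbols of the table in parentheses. KRT14 and KRT10 are the only rows tested where the 2 cell types lie close together, and KRT5 has the highest DPC points.

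The other hair keratins were also scarce. Of 17 hair keratins listed, 7 had a row in the table and together held 2 reads in DPC and 262 reads in HMC. KRT40 and KRT39 (KA35), type I hair keratins, passed the filter through their HMC level alone, so that HMC had to be higher. KRT40 stood at 0.0191 ± 0.0331 in DPC against 2.17 ± 0.299 FPKM in HMC, and KRT39 at 0.0171 ± 0.0296 in DPC against 1.27 ± 0.238 FPKM in HMC (SD, n = 3 each). KRT36 (HHA6), KRT38 (HHA8), KRT35 and KRT81 had 0 reads in DPC and 15, 11, 4 and 1 reads in HMC. The summed hair keratins came to at most 0.0573 in DPC against 4.44 to 4.73 FPKM in HMC, below KRT14 alone in either cell type.

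The level kept in DPC was not the same share of the HMC level from gene to gene. For the 11 simple epithelium markers, which include KRT7, KRT8, KRT18 and KRT19, the DPC mean was at most 0.468% of the HMC mean, with a median of 0.188%. CDH1, EPCAM, CLDN7, ESRP1, GRHL2 and ST14 passed the filter only through HMC, so for them a DPC level below the HMC level was fixed. E-cadherin (CDH1) stood at 0.368 ± 0.0521 in DPC against 195 ± 12.6 FPKM in HMC (SD, n = 3 each). KRT80, at 0.527%, lay just above all 11 markers. KRT5 lay at 3.52%, and the row called KRT6E, an older symbol of the hyperproliferation keratin KRT6C, at 5.60%. KRT17 lay at 11.2% and KRT14 at 108%. KRT15, which also passed the filter only through HMC, lay at 0.111%. A part of HMC or other epithelial cells in the DPC cultures was not tested beyond these values.

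**Figure D4:**
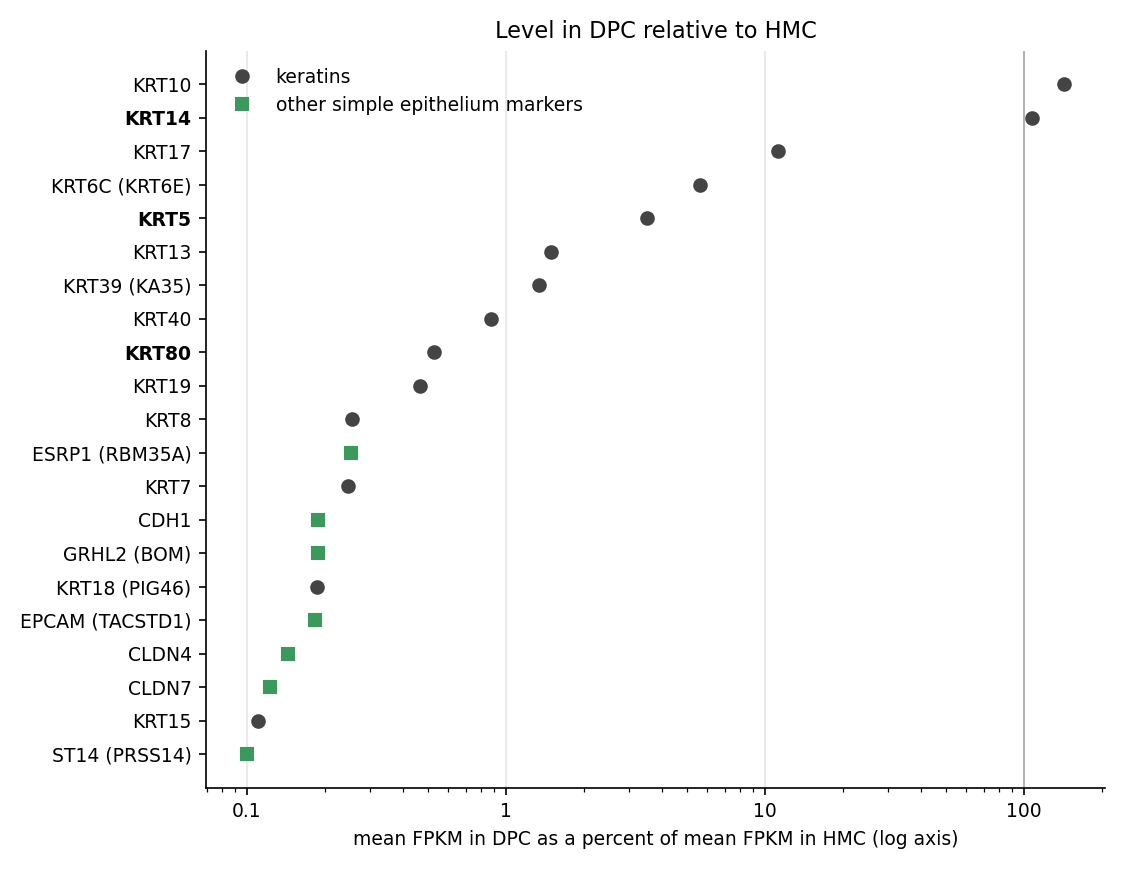
Mean FPKM in DPC as a percent of mean FPKM in HMC, on a log axis, for the keratins tested (circles) and the other simple epithelium markers (squares), with KRT5, KRT14 and KRT80 in bold and a line at 100%. The simple epithelium markers lie at 0.468% or less, KRT80 at 0.527%, KRT5 at 3.52% and KRT14 at 108%. Genes with a DPC mean under 0.5 FPKM passed the filter only through HMC, so their place left of the line was fixed.

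Genes that anchor KRT5 and KRT14 filaments to the basement membrane were mostly higher in HMC. Of 9 genes of hemidesmosomes and their laminin, none was called higher in DPC and 8 were called higher in HMC, with a median log2 difference of -5.57. Over all genes tested, 29.7% were called higher in DPC and 46.2% higher in HMC. LAMB3 (LAMNB1), a chain of laminin-332, stood at 2.06 ± 0.247 in DPC against 287 ± 19.6 FPKM in HMC, and the integrin ITGB4 at 2.44 ± 0.412 in DPC against 177 ± 2.35 FPKM in HMC (SD, n = 3 each). ITGA6 and LAMA3 (LAMNA) had log2 differences of -6.31 and -5.74. The remaining gene was plectin (PLEC), the linker between keratin and integrin, which was not called, at 88.5 ± 0.744 in DPC against 91.6 ± 1.65 FPKM in HMC, and was called higher in DPC after median-of-ratios rescaling (log2 difference 0.11, limma adjusted p = 0.0287) and after quantile normalization (0.26).

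Desmosome genes, which tie keratin filaments to the junctions between cells, were higher in HMC in 8 of 8 tested, with a median log2 difference of -5.14. The share called higher in HMC over all genes tested was 46.2%. DSG2 (CDHF5), PKP1 and PKP2 had DPC means under 0.5 FPKM and passed the filter only through HMC, so their direction was fixed. The cadherin DSG3, typical of basal layers, stood at 0.563 ± 0.266 in DPC against 96.9 ± 2.35 FPKM in HMC, and the keratin linker desmoplakin (DSP) at 0.748 ± 0.136 in DPC against 104 ± 2.04 FPKM in HMC (SD, n = 3 each). DSG2 and PERP (KCP1) had log2 differences of -6.21 and -5.24. Not all desmosome genes were low in DPC. DSC3 stood at 50.8 ± 1.76 in DPC against 135 ± 0.451 FPKM in HMC, a log2 difference of -1.39. JUP stood at 10.7 ± 1.13 in DPC against 271 ± 5.48 FPKM in HMC (SD, n = 3 each). DSG1 and DSC1, junction cadherins of upper epidermal layers, lay under the filter, with 1 and 0 reads in DPC and 111 and 8 reads in HMC.

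Of 30 genes of the cornified envelope and late differentiation, the setting in which KRT80 is best known, 21 had a row and 14 were tested. Of those, 1 was called higher in DPC, 11 higher in HMC and 2 were not called, with a median log2 difference of -1.83. The shares called over all genes tested were 29.7% and 46.2%. IVL, TGM1 (KTG), EVPL, SCEL, GRHL1, GRHL3 and ZNF750 had DPC means under 0.5 FPKM. They passed the filter only through HMC, so HMC had to be higher. Sciellin (SCEL), an envelope precursor, stood at 0.121 ± 0.0910 in DPC against 82.8 ± 1.86 FPKM in HMC, and periplakin (PPL, in the table KIAA0568) at 1.43 ± 0.137 in DPC against 115 ± 3.93 FPKM in HMC (SD, n = 3 each). The transcription factor GRHL3 had a log2 difference of -3.92. The member higher in DPC was KLF4 (EZF), a zinc finger factor of barrier formation that many cell types express, at 35.1 ± 2.89 in DPC against 2.22 ± 0.527 FPKM in HMC. The most abundant member was S100A10, at 745 ± 21.4 in DPC against 2228 ± 73.7 FPKM in HMC. Involucrin (IVL), the classic envelope precursor, was low, at 0.0320 ± 0.0554 in DPC against 1.72 ± 0.420 FPKM in HMC. TGM3 and CASP14, which were not called, were called higher in DPC after either rescaling, TGM3 also with the replicate block (limma adjusted p = 0.0304) and without DPC replicate 2 (limma adjusted p = 0.0377).

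Of 17 tested regulators of epidermal and hair keratins, 1 was called higher in DPC, 14 higher in HMC and 2 were not called, with a median log2 difference of -1.97. Among all genes tested, 29.7% were called higher in DPC and 46.2% higher in HMC. TP63, SOX9, GATA3, DLX3, TFAP2C, GRHL2, EHF and ELF3 had DPC means under 0.5 FPKM. They passed the filter only through HMC, so their direction was fixed by the filter. EHF and ELF3 (Ert), ETS factors of epithelia, had log2 differences of -6.74 and -5.16, EHF with 0.121 ± 0.0596 in DPC against 119 ± 3.14 FPKM in HMC (SD, n = 3 each). SOX9 and GRHL2 (BOM) had -4.88 and -4.14. The regulator higher in DPC was MSX2, a homeobox factor of the hair follicle, at 6.15 ± 0.838 in DPC against 2.47 ± 0.138 FPKM in HMC (SD, n = 3 each), with a log2 difference of 1.04 (limma adjusted p = 2.14e-05). TP63 (KET), which drives KRT5 and KRT14 in basal keratinocytes, was scarce in each, at 0.0687 ± 0.0313 in DPC against 0.992 ± 0.129 FPKM in HMC (log2 difference -0.90, limma adjusted p = 3.68e-05). HOXC13 (HOX3G), a direct regulator of hair keratin genes, had little mRNA in either, at 0.767 ± 0.249 in DPC against 0.665 ± 0.215 FPKM in HMC, and was not called (limma adjusted p = 0.601). FOXN1 (RONU), another regulator of hair keratins, had 1 read in DPC and 13 reads in HMC. RUNX1 (AML1) and CUX1 (CUTL1) lost their HMC calls after quantile normalization and CUX1 also after median-of-ratios rescaling, while NOTCH1 (TAN1), not called with FPKM as deposited, was called higher in DPC after both. TP63, HOXC13, FOXN1, IVL, DSG1, DSC1, DSC3, JUP, PLEC, TGM3, CASP14, RUNX1, CUX1, NOTCH1, KRT222, MSX2, the immune markers TYROBP and CSF1R and the melanocyte marker PMEL were chosen for naming after their values were seen. So were the genes named for passing the filter through HMC alone or DPC alone.

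**Figure D5:**
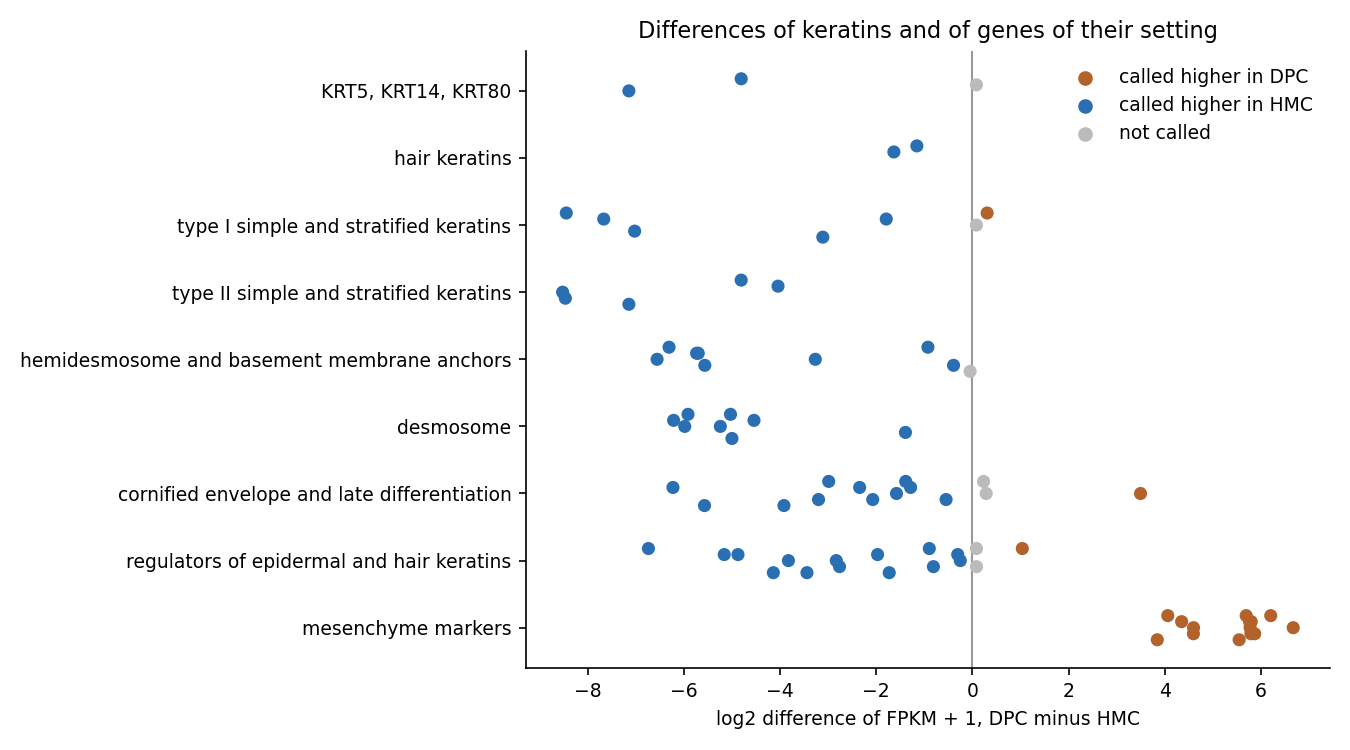
log2 difference of FPKM + 1, DPC minus HMC, of each gene tested, by list (KRT5, KRT14 and KRT80 stand in the top row and again in their type), with colours for the limma call at an adjusted p below 0.05 (higher in DPC, higher in HMC, not called). KRT5 at -4.81 lies among the hemidesmosome and desmosome genes, whose medians are -5.57 and -5.14, KRT80 at -7.15 lies left of all of them, and KRT14 lies at 0.08.

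Other skin cells were checked by their markers. Among melanocyte genes, 1 of 4 tested was called higher in DPC and 3 higher in HMC. Among immune genes the calls were 1 for DPC and 2 for HMC of 3 tested, and among endothelial genes 1 for each of 2 tested. Over all genes tested, 29.7% were called higher in DPC and 46.2% higher in HMC. SOX10, EDNRB, AIF1 and VWF passed the filter of 0.5 FPKM only through HMC, and LAPTM5 only through DPC. The direction of these genes was fixed by the filter. Single genes carried the melanocyte and endothelial sums given next: the endothelin receptor EDNRB held 0.295 ± 0.0716 in DPC against 64.7 ± 3.18 FPKM in HMC, and the TGF-beta co-receptor ENG 60.8 ± 1.69 in DPC against 1.96 ± 0.0368 FPKM in HMC (SD, n = 3 each). Of the defining melanocyte genes, SOX10 had 0 reads in DPC and 86 in HMC, MLANA (MART1) 0 in DPC and 1 in HMC, and KIT 2 in DPC and 0 in HMC, while MITF (BHLHE32) was called higher in DPC. The summed melanocyte list came to 5.96 to 6.37 FPKM in DPC and 69.6 to 74.1 in HMC, the immune list to 11.9 to 12.4 in DPC and 13.4 to 18.9 in HMC, and the endothelial list to at least 60.0 in DPC and at most 3.20 in HMC. The melanocyte gene PMEL, 1 of those called higher in HMC, lost its call after both rescalings, with a pseudocount of 0.1, with no filter or one of 0.1 FPKM, with the replicate block (limma adjusted p = 0.0773) and without DPC replicate 1 or 2 or HMC replicate 1 or 2. The endothelial genes PECAM1 and CDH5 held 4 and 1 reads in DPC and 5 and 2 in HMC. Few genes carried the immune sums. LAPTM5 held 9.46 ± 0.264 in DPC against 0.257 ± 0.167 FPKM in HMC (SD, n = 3 each). CD14 held 2.47 ± 0.412 in DPC against 10.1 ± 1.90 FPKM in HMC, and AIF1 0.0511 ± 0.0443 in DPC against 6.48 ± 1.55 FPKM in HMC. TYROBP and CSF1R held 8 and 2 reads in DPC and 3 and 1 in HMC. Mesenchyme markers in HMC stood at 0.764 to 6.97% of their DPC level, with a median of 1.78%. The part of mesenchymal cells in the HMC values of KRT14 was not tested.

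The genes with profiles most like the members over the 6 libraries, by the Euclidean distance between centred log2(FPKM + 1) values, were listed as a description. For KRT5 they were the pseudokinase TRIB1, the membrane protease MMP15 and the fringe enzyme MFNG, at distances of 0.189, 0.207 and 0.217. For KRT80 they were the adhesion receptor GPR56, the polarity protein CRB3 and CDH1, at 0.262, 0.314 and 0.354. For KRT14 they were the row called Tcf-1, the recombination gene RAD51L1 and the peroxisome gene PEX3, at 0.169, 0.208 and 0.219, none of them a keratin. With 2 cell types, this distance mostly reflects the size of the difference between them.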

How the data were processed

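mRNA was sequenced from 3 DPC and 3 HMC cultures, with stranded libraries per the labels' protocols. The authors deposited 1 table of FPKM per gene and library. Tools named in the submitters' processing notes, without roles, are DESeq 1.20.0, HISAT2 2.2.1.0 and Trimmomatic. The sources used here do not give the counter, build or annotation release, and no coordinates are printed.

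Where a symbol repeated, the row of higher mean FPKM was used. The values of 100% of genes were whole multiples of a step, within 1e-06 reads, which gave reads up to a common factor per gene. They are lower limits of the true reads, and counting SDs from them are upper limits. limma 3.58.1 in R 4.3.3 was fitted to log2(FPKM + 1) of the 11883 genes whose mean reached 0.5 FPKM, with trended prior variance, DPC minus HMC, two-sided, and Benjamini-Hochberg adjustment over all genes at 0.05. A log2 difference on this scale understates changes of low genes. The procedure was checked on simulated data. The simulation had far fewer changed genes than were called here and the same spread beyond counting error for every gene. It does not cover a spread as uneven as that of KRT14. Ratios and shares were tested by exact permutation over libraries. Python 3.11.15, numpy 2.4.6, pandas 2.3.3, scipy 1.17.1 and matplotlib 3.10.9 were used.

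The members and gene lists were chosen with earlier results of these data known. Of 168 listed symbols, 119 had a row, 48 of them under an older symbol, and the other 49 are not analysed here. Named were the members, keratins that passed the filter, per list up to 4 called genes that differed most plus its most abundant gene, and the 3 nearest profiles per member. Keratins may share reads, so single values are uncertain. RefSeq names for this species (assembly Bosgru_T2T1.0) hold 2 of the 4 members, KRT5 and KRT80.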

Additional observations from a re-analysis of the deposited data

How the results depend on the processing

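KRT5 and KRT80 kept their direction and their call in all 15 alternatives (pseudocount 0.1, no filter, a filter of 5 FPKM, median-of-ratios and quantile scaling, no trend, the replicate block, each library left out, voom on recovered reads, sums of rows), with log2 differences of -4.92 to -4.53 and -7.58 to -6.94. KRT14 was not called except without DPC replicate 2 (0.25), its sign reversed without DPC replicate 3 (-0.061), and with 1 library left out it ranged from -0.061 to 0.25. Rescaling moved the median of all genes from -0.15 to -0.02 (median-of-ratios) and 0.05 (quantile), and relative to that median KRT14 lay at 0.24, 0.25 and 0.24. Of all calls, 39.1% were higher in DPC with the deposited FPKM, 48.8% with median-of-ratios scaling and 53.8% with quantile scaling. KRT83 could be tested only with no filter (log2 difference -0.64, limma adjusted p = 0.000190) or with a filter of 0.1 FPKM chosen after the data were seen (-0.64, limma adjusted p = 0.000314). KRT83 entered both fits through HMC alone, so its direction was fixed. The type II to type I difference was -0.85 with current symbols only, which leaves out 6 rows, KRT18 and the row called KRT6E among them, and -0.41 to -0.38 with 1 library left out. The KRT5 to KRT14 difference ranged from -5.02 to -4.82. Genes called numbered 6808 to 9851, against 9020. Replicate numbers were not used as pairs in the main fit: deviations of same-numbered libraries correlated at 0.00635 to 0.0337, under the limit of 0.1 set for pairing. Still, 4 of 6 libraries matched their own number best. With 3 libraries per group, this check cannot decide whether same-numbered cultures shared an animal or a batch. With the replicate block KRT14 stayed at 0.08 (adjusted p = 0.545) and 8924 genes were called. KRT83 rests on 34 reads, which limits its precision.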
